A study of Mus musculus with 12 samples.

Results

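The T cell receptor (TCR) repertoire of CD8+ T cells of the tumor-draining lymph node (tdLN) was compared between mice given IL-10-Fc, the cytokine interleukin-10 fused to an antibody Fc domain, and mice given control IgG. All were wild-type mice bearing HNSCC/Q1-2 tumors, a head and neck squamous cell carcinoma line syngeneic to C57BL/6 mice. The study's methods describe young adult mice with tumors placed in the buccal mucosa or under the skin, and the site for these samples was not given in the sources used here. The labels give 30 mg/kg of each agent in 3 doses with 3 days between doses, whereas the study's methods give a lower dose of IL-10-Fc than of control IgG. CD8+ T cells were isolated with magnetic microbeads, the RNA of 3 mice was mixed, and 100 ng of it was made into 1 library with unique molecular identifiers (UMIs), so each side was 1 pooled library (n = 1) and no value between them has a replicate check. These were 2 of the 4 node libraries among 12 libraries of 3 tissues and 4 treatments. The other agents were an antibody against CSF1R (anti-CSF1R) and BF10, a fusion of that antibody with interleukin-10.

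A clonotype was taken as 1 combination of chain, V region, J region and CDR3 amino acid sequence, and was counted by its UMIs with at least 3 reads. All 254493 clonotypes listed in either library were members, 159612 with IL-10-Fc and 113044 with control IgG, of 1005105 in the whole series. The pair was chosen because its read coverage per UMI was alike. With IL-10-Fc, 33.5% of the 340888 UMIs had at least 7 reads, and with control IgG 38.7% of the 238672 UMIs, against 8.00% and 9.94% in the BF10 and anti-CSF1R node libraries. By chain, the IL-10-Fc and control libraries held 137078 and 101598 UMIs of the alpha constant region (TRAC), 185084 and 124488 of the beta (TRBC), 10860 and 7731 of the gamma (TRGC) and 7866 and 4855 of the delta (TRDC). TRAC UMIs numbered 0.741 and 0.816 per TRBC UMI, against 0.274 and 0.312 in the BF10 and anti-CSF1R nodes.

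A conventional T cell carries 1 pairing of an alpha and a beta chain, each made in the thymus by joining gene segments, V to J for alpha and V to D to J for beta. Nucleases trim the joined ends, and the enzyme terminal transferase adds bases that no germline gene holds, so the joint, which encodes the CDR3 loop at the centre of the peptide contact, differs from cell to cell. A CDR3 that needs few such added bases can arise again in many mice and is called public, while a long stretch of added bases mostly marks the progeny of 1 cell. In a draining node, naive T cells of great variety pass through, and those that meet tumor peptides there divide before they leave for the tumor. A UMI marks a cDNA molecule, not a cell, so more cells of a clone and more receptor RNA per cell cannot be told apart here.

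The CDR3 sequences of the beta clonotypes on which the comparison turned are shown from the conserved cysteine codon to the conserved phenylalanine codon, 5′ to 3′, as the commonest nucleotide form of each clonotype in both libraries. Capitals mark the bases that matched neither the germline V gene read from its start nor the germline J gene read from its end, that is, the D bases and the added bases. The amino acids are given where the CDR3 has at most 14 residues.
Trbv16 with Trbj2-7, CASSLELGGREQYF, most abundant with IL-10-Fc: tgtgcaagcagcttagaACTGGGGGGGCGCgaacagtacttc
Trbv3 with Trbj2-7, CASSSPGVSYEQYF, IL-10-Fc: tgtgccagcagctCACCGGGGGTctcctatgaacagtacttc
Trbv2 with Trbj1-5, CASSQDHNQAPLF, IL-10-Fc: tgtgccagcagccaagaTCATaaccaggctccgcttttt
Trbv17 with Trbj2-7, 16 residues, most abundant with control IgG: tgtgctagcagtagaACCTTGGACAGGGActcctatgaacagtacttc
Trbv5 with Trbj2-4, 15 residues, control IgG: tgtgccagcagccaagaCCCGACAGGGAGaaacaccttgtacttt
Trbv3 with Trbj2-7, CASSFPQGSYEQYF, control IgG: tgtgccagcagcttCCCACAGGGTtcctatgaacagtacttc
Trbv17 with Trbj1-1, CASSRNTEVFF, both libraries: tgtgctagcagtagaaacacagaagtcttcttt
Trbv15 with Trbj2-7, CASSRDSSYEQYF, both libraries: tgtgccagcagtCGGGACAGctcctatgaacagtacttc

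The alpha clonotypes are shown in the same way, with capitals for the bases that matched neither germline V nor germline J. They are some of the most abundant ones and some of those unequal between the libraries.
Trav11 or Trav11d with Traj18, 15 residues, most abundant in both libraries: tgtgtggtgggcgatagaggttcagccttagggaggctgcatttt
Trav10 with Traj43, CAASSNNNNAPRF, both libraries: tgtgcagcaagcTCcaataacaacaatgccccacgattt
Trav10n with Traj43, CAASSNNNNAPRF, mostly control IgG: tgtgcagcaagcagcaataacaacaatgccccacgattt
Trav14-2 or Trav14n-2 with Traj22, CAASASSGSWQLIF, both libraries: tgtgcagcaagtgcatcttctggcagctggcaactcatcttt
Trav7d-2 with Traj13, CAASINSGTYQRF, mostly IL-10-Fc: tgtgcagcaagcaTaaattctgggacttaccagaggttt
Trav7d-2 with Traj13, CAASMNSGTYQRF, mostly control IgG: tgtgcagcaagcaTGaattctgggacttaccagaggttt
Trav9d-1 with Traj37, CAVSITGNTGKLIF, mostly IL-10-Fc: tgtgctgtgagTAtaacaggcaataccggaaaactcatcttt

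The beta repertoires of both libraries were flat, and their leading clonotypes differed. The 10 most abundant TRBC clonotypes together held 0.705% of TRBC UMIs with IL-10-Fc (95% exact binomial interval 0.667% to 0.744%) and 0.740% with control IgG (0.693% to 0.789%). All intervals printed here cover counting error only, not the spread between mice. Clonotypes seen by a single UMI made up 54.9% of the TRBC clonotypes with IL-10-Fc and 53.5% with control IgG. Those with 20 or more UMIs numbered 209 and 117 and held 4.09% and 3.36% of TRBC UMIs. In alpha chains, the 10 most abundant clonotypes held 1.46% (1.39% to 1.52%) and 1.52% (1.44% to 1.59%), and 273 and 199 clonotypes had 20 or more UMIs, with 7.56% and 7.47% of TRAC UMIs.

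At the same number of UMIs, the IL-10-Fc library listed somewhat more clonotypes. At 124488 TRBC UMIs, 77180 beta clonotypes would be listed with IL-10-Fc against 67360 with control IgG, a ratio of 1.15, and at 101598 TRAC UMIs 49456 alpha clonotypes against 42972, also 1.15. The ratio moved with the reads required of a UMI, to 1.05 for beta and 1.06 for alpha at 7 or more reads.

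The most abundant beta clonotype with IL-10-Fc was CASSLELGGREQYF with Trbv16 and Trbj2-7. It had 236 UMIs with IL-10-Fc, 0.128% of TRBC (0.112% to 0.145%), and 1 UMI with control IgG, a 159-fold difference in share (exact interval 28.2 to 6296). The same clonotype had 1447 UMIs in the IL-10-Fc tumor library and 1 in the control tumor, 355 and 339 in the BF10 and anti-CSF1R tumors, and 110 in the BF10 node. Over both node libraries 6 nucleotide forms encoded it, and the form shown above had 153 of its node UMIs. Elsewhere most of its UMIs were of other nucleotide forms. The form shown had 285 of the 1447 UMIs in the IL-10-Fc tumor, 5 of 355 and 0 of 339 in the BF10 and anti-CSF1R tumors, and 29 of 110 in the BF10 node. Of the 13 bases in capitals in that form, 11 lie in 1 unbroken run of Trbd2, the D segment next to the Trbj2 cluster. Trbv16 lies on chromosome 6 from 41151740 to 41152230 and Trbj2-7 from 41543810 to 41543856, both on the plus strand of GRCm38 (mm10).

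The next beta clonotypes of the IL-10-Fc node were lower in the control node or at 0 there. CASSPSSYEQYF with Trbv3 and Trbj2-7 had 149 UMIs against 30, 3.34-fold (2.25 to 5.12). It had 66 UMIs in the anti-CSF1R node and 136 in the BF10 node, and was seen in 9 of the 12 libraries. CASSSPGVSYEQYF with the same gene segments had 136 UMIs against 0, at least 30.5-fold higher when the control library is set at a floor of 3 UMIs, and 41 UMIs in the anti-CSF1R node. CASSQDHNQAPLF with Trbv2 and Trbj1-5 had 128 against 0, at least 28.7-fold higher, and elsewhere only 1 UMI in the anti-CSF1R node. Each of these last 2 rested almost wholly on 1 nucleotide form in the IL-10-Fc node, with 134 of 136 and 128 of 128 UMIs. In the anti-CSF1R node these forms had 0 UMIs, so the 41 and the 1 there were of other nucleotide sequences. A count of 0 allows a share of up to 0.00241% of TRBC UMIs in the control library and up to 0.00162% in the IL-10-Fc library.

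The control node led with beta clonotypes that the IL-10-Fc node did not list. The 16-residue CDR3 of Trbv17 with Trbj2-7 had 147 UMIs with control IgG, 0.118% (0.0998% to 0.139%), and 0 with IL-10-Fc, at least 72.9-fold higher with control IgG. It was otherwise seen only in the control tumor, at 5 UMIs. The 15-residue CDR3 of Trbv5 with Trbj2-4 had 123 against 0 (at least 61.0-fold) and was otherwise seen in the control spleen and the control tumor, at 6 and 3 UMIs. These 2 clonotypes were thus listed in control IgG libraries alone. For Trbv17 the form shown above had all 147 node and all 5 tumor UMIs. For Trbv5 the form shown had 100 of the 123 node UMIs. It had 0 of the 6 spleen and 0 of the 3 tumor UMIs, which were of other nucleotide forms. Trbv17 lies on chromosome 6 from 41163062 to 41163556 and Trbv5 from 41062332 to 41062803 on the plus strand of GRCm38. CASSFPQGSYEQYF and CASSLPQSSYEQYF, both of Trbv3 with Trbj2-7, had 103 and 99 UMIs against 0 (at least 51.0-fold and 49.1-fold), the second in no other library. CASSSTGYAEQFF of Trbv19 with Trbj2-1 had 79 against 0 (at least 39.2-fold).

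One leading beta clonotype was held by both nodes alike. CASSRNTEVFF with Trbv17 and Trbj1-1 had 120 UMIs with IL-10-Fc and 70 with control IgG, a ratio of shares of 1.15 (0.852 to 1.57), and its commonest form has no base outside the germline V and J genes. It was listed in all 12 libraries, with 2 to 9 UMIs in each spleen and 254 to 653 in the tumors of the treated mice, and with 5732 of 104036 TRBC UMIs in the control tumor. That commonest form had 95 of the 120 and 29 of the 70 node UMIs, and 924 of the 5732 in the control tumor. In the IL-10-Fc, anti-CSF1R and BF10 tumors it had 384 of 463, 233 of 653 and 199 of 254. The other most abundant beta clonotypes of both nodes were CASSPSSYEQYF of Trbv3 (149 and 30 UMIs), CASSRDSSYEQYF of Trbv15 (33 and 30), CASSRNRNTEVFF of Trbv17 (31 and 74) and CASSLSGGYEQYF of Trbv3 (45 and 20). The ratios for Trbv15 and for the second Trbv3 clonotype, 0.740 (0.437 to 1.26) and 1.51 (0.875 to 2.71), did not differ from 1 beyond counting error. For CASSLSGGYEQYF the 2 counts were of unlike nucleotide sequences. Its commonest form had 42 of the 45 UMIs with IL-10-Fc and 0 of the 20 with control IgG.

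**Figure D1:**
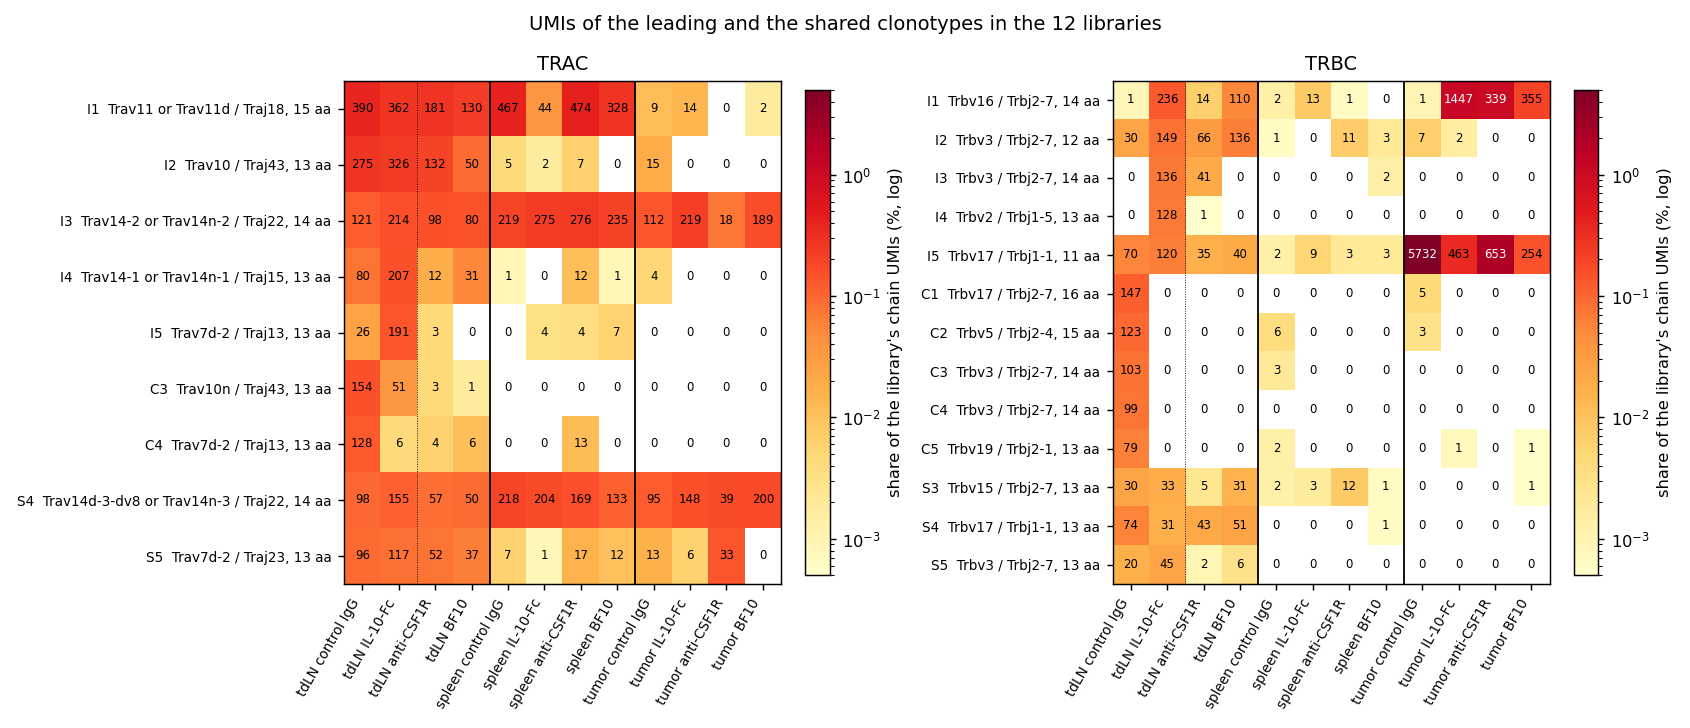
UMIs of the 5 most abundant clonotypes of each node library (I, IL-10-Fc; C, control IgG) and of the shared clonotypes with the highest lower share (S), for TRAC at left and TRBC at right, each clonotype named by V region, J region and CDR3 length in amino acids (aa). The printed number is the UMIs in each of the 12 libraries and the colour is the share of that library's chain UMIs on a log scale; the leading beta clonotypes of the control node read 0 in the IL-10-Fc node, while Trav14-2 or Trav14n-2 with Traj22 is filled across all 12 libraries.

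Of the 5 most abundant alpha clonotypes of each library, 3 were common to both. The most abundant one was the chain of Trav11 or Trav11d with Traj18 known from invariant natural killer T (iNKT) cells, with 362 UMIs with IL-10-Fc and 390 with control IgG, or 0.264% (0.238% to 0.293%) and 0.384% (0.347% to 0.424%). On chromosome 14 of GRCm38, Trav11 lies from 53519303 to 53519859, its copy Trav11d from 52824357 to 52824912 and Traj18 from 54200777 to 54200842. The second was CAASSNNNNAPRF of Trav10 with Traj43, with 326 and 275 UMIs, 0.238% and 0.271%, at a ratio of 0.879 (0.746 to 1.04). It was mostly a node clonotype, with 132 and 50 UMIs in the anti-CSF1R and BF10 nodes and at most 7 in any spleen. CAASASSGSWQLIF, whose commonest form has no added base, had 214 and 121 UMIs with Trav14-2 or Trav14n-2 and 155 and 98 with Trav14d-3-dv8 or Trav14n-3, both with Traj22, and each was listed in all 12 libraries.

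Several alpha clonotypes were unequal, some of the leading ones among them. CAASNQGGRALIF of Trav14-1 or Trav14n-1 with Traj15 had 207 UMIs with IL-10-Fc and 80 with control IgG, 1.92-fold (1.47 to 2.51). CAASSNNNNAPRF with Trav10n and Traj43 had 51 and 154, a ratio of 0.245 (0.175 to 0.339), although reads of Trav10n and Trav10 cannot be split safely. The commonest forms under both calls differ in their CDR3 bases, as shown above. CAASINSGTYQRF of Trav7d-2 with Traj13 had 191 UMIs with IL-10-Fc and 26 with control IgG, 5.44-fold (3.60 to 8.55), whereas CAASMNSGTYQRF of the same gene segments had 6 and 128, a ratio of 0.0347 (0.0125 to 0.0777). Both have 13 residues, and their forms are shown above side by side. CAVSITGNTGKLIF of Trav9d-1 with Traj37 had 171 against 4, 31.7-fold (12.2 to 118), a 14-residue CDR3 of Trav14-2 or Trav14n-2 with Traj27 had 83 against 2, 30.8-fold (8.25 to 258), and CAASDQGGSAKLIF of Trav7d-2 with Traj57 had 40 against 1, 29.6-fold (5.02 to 1200). None of these 3 had more than 5 UMIs in any of the other 10 libraries. In the other direction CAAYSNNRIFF of Trav7d-2 with Traj31 had 1 against 98, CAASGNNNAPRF of Trav10 with Traj43 had 1 against 38, and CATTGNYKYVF of Trav8-1 with Traj40 had 1 against 27. Their ratios were 0.00756, 0.0195 and 0.0275, with upper limits of 0.0431, 0.115 and 0.167.

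Over all clonotypes with at least 20 UMIs in both libraries together, a larger share of the beta than of the alpha clonotypes was unequal. With a share at least 4-fold higher in 1 library, which is a call by size and not a test, 184 of 384 TRBC clonotypes were higher with IL-10-Fc (47.9%) and 108 were lower (28.1%), leaving 92 within 4-fold. At 7 or more reads per UMI the excess of clonotypes higher with IL-10-Fc was much smaller, with 21 higher and 19 lower of 48 TRBC clonotypes. Of 656 TRAC clonotypes, 147 were higher (22.4%), 119 were lower (18.1%) and 390 lay within. For TRAC the order turned at 7 or more reads, with 12 higher and 15 lower of 79. The minimum of 20 UMIs was reached more readily in the larger IL-10-Fc library, so the 2 directions were not sampled alike. Many unequal clonotypes were listed in 1 library alone, 147 of the 184 and 80 of the 108 for beta and 85 of the 147 and 53 of the 119 for alpha. Any clonotype listed in 1 library alone is called unequal by the rule, since 20 UMIs against the floor of 3 exceed 4-fold. The clonotypes called higher held 3.49% of TRBC UMIs with IL-10-Fc and 0.0723% with control IgG, and those called lower held 0.0627% and 3.03%.

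The unequal clonotypes were looked up in the tumor and spleen libraries of the same treatments, which the labels do not tie to the same animals. Of the 184 TRBC clonotypes that were higher with IL-10-Fc, 35 were listed in the IL-10-Fc tumor and 9 in the control tumor, and 44 and 29 in the IL-10-Fc and control spleens. Of the 108 that were lower, 14 were listed in the control tumor and 12 in the IL-10-Fc tumor, and 39 and 16 in the control and IL-10-Fc spleens. The IL-10-Fc tumor library listed 51589 beta clonotypes and the control tumor 8926, whereas the spleens listed 92465 and 74305, so the tumors offered unequal numbers of clonotypes to match. Of the 184 and the 108, 80 and 36 were listed in none of the other 10 libraries, as were 2 of the 92 within 4-fold. Over all 384 they were 118 (30.7%). For alpha, 44 of the 147 higher clonotypes were in the IL-10-Fc tumor and 13 in the control tumor, and of the 119 lower ones 24 were in the control tumor and 38 in the IL-10-Fc tumor. Of the alpha clonotypes, 45 of the 147 higher, 23 of the 119 lower and 6 of the 390 within 4-fold were in none of the other 10 libraries. Over all 656 they were 74 (11.3%). By the rule, clonotypes within 4-fold are listed in both nodes, so for either chain they are not a like baseline for the unequal ones.

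How far a clonotype differed went with the number of nucleotide sequences behind it. Of the TRBC clonotypes with at least 20 UMIs, 1 of 172 that had a single nucleotide form lay within 4-fold between the libraries (0.581%), 33 of 143 with 2 to 4 forms (23.1%) and 58 of 69 with 5 or more (84.1%). For TRAC the shares were 21.1% of 166, 68.4% of 392 and 88.8% of 98. In TRBC the median number of libraries that listed a clonotype was 1, 4 and 10 for the 3 classes. A clonotype listed in only 1 node library has fewer chances to show further forms. With at least 20 UMIs there and 0 in the other, it also lies past 4-fold by the floor of 3 UMIs. Only 5 of the 172, 85 of the 143 and 67 of the 69 TRBC clonotypes were listed in both nodes. For TRAC they were 61 of 166, 360 of 392 and 97 of 98, so these counts are a description.

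**Figure D2:**
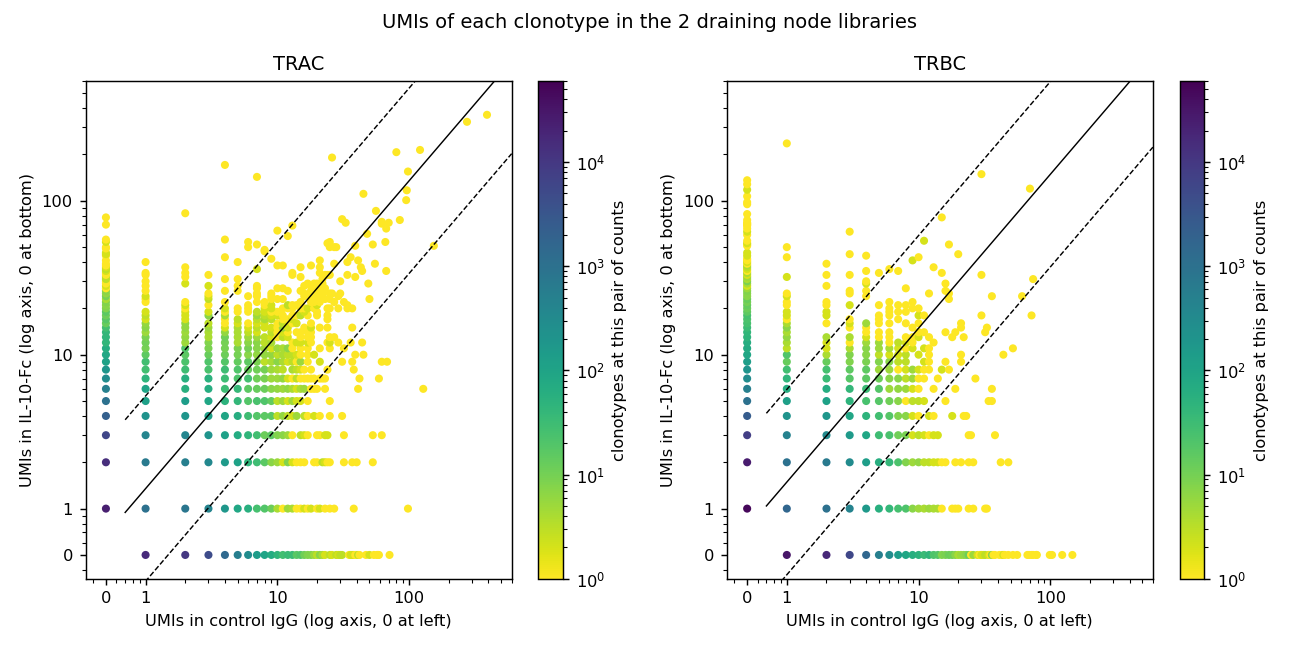
UMIs of each clonotype in the control IgG node (x axis) and the IL-10-Fc node (y axis), both on log axes with 0 set apart, for TRAC at left and TRBC at right; the colour is the number of clonotypes at each pair of counts. The solid line is an equal share and the dashed lines are 4-fold either way; abundant TRBC clonotypes crowd along the 0 of each axis, with 147 and 80 unequal ones there against 85 and 53 for TRAC, where 390 of the 656 abundant clonotypes lie between the dashed lines.

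A minority of clonotypes was listed in both nodes, more of the alpha than of the beta chains. The libraries shared 9063 TRAC clonotypes, 15.8% of those listed with IL-10-Fc and 21.1% of those with control IgG, which held 28.2% and 32.9% of TRAC UMIs. They shared 8687 TRBC clonotypes, 8.85% and 12.9% of each list, with 13.3% and 16.9% of TRBC UMIs. These shares depend on how a clonotype is defined. By CDR3 nucleotides, 5872 TRAC clonotypes (9.27% and 12.6%) and 2962 TRBC clonotypes (2.79% and 4.14%) were shared, whereas by CDR3 amino acids alone the shares were 30.9% and 39.5% for TRAC and 16.4% and 23.3% for TRBC. For TRGC 334 were shared (26.3% and 32.4%) and for TRDC 79 (2.94% and 4.70%). At 124488 TRBC UMIs in each, 7260 clonotypes would be shared, 9.41% and 10.8% of the lists, against 9.74% and 11.3% for the IL-10-Fc and control spleens and 11.6% and 11.8% for the BF10 and anti-CSF1R nodes. At 55901 TRAC UMIs the shares were 15% and 16.4% in these nodes, 15.1% and 16.5% in the spleens and 15.6% and 15.9% in the other nodes. No second library of either treatment was analysed, so the share that 2 pools of control mice would have in common is not known.

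The shared clonotypes had shorter junctions. In TRBC, shared nucleotide sequences had a mean of 7.68 bases matched by neither germline V nor J with IL-10-Fc and 7.69 with control IgG, against 10.4 in both libraries for the sequences of clonotypes listed in 1 library. In TRAC the means were 2.63 and 2.56 against 4.04 and 4.08. Sequences with no such base made up 18.4% and 18.9% of the shared TRAC sequences and 7.19% and 6.76% of the others, and for TRBC 1.70% and 1.79% against 0.251% and 0.218%. A larger share of the shared clonotypes had several nucleotide forms, 27.3% and 20.3% against 4.37% and 2.91% for TRBC and 26.4% and 20.2% against 4.88% and 3.35% for TRAC. They also had more UMIs, with a mean of 2.84 and 2.42 against 1.79 and 1.76 for TRBC, and more UMIs give more chances to be listed in both libraries and in several forms. Over all clonotypes the 2 treatments were close, at 10.1 and 9.98 bases for TRBC and 3.76 and 3.71 for TRAC, with SDs over sequences of 5.95 and 5.22, and of 3.47 and 3.49.

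CDR3 length was alike in both nodes. Its mean over TRAC UMIs was 13.51 residues in each library (SD 1.35 in each), and over TRBC UMIs it was 13.85 with IL-10-Fc (SD 1.93) and 13.83 with control IgG (SD 1.65). A length of 14 residues was the commonest in both chains, at 30.7% and 30.4% of TRAC UMIs and 31.1% and 31.4% of TRBC UMIs. The wider SD of the IL-10-Fc beta chains came with rare long CDR3s, as 56 TRBC UMIs with IL-10-Fc and 16 with control IgG had more than 20 residues. Of these, 31 and 10 had more than 100, far beyond the length of a receptor loop.

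**Figure D3:**
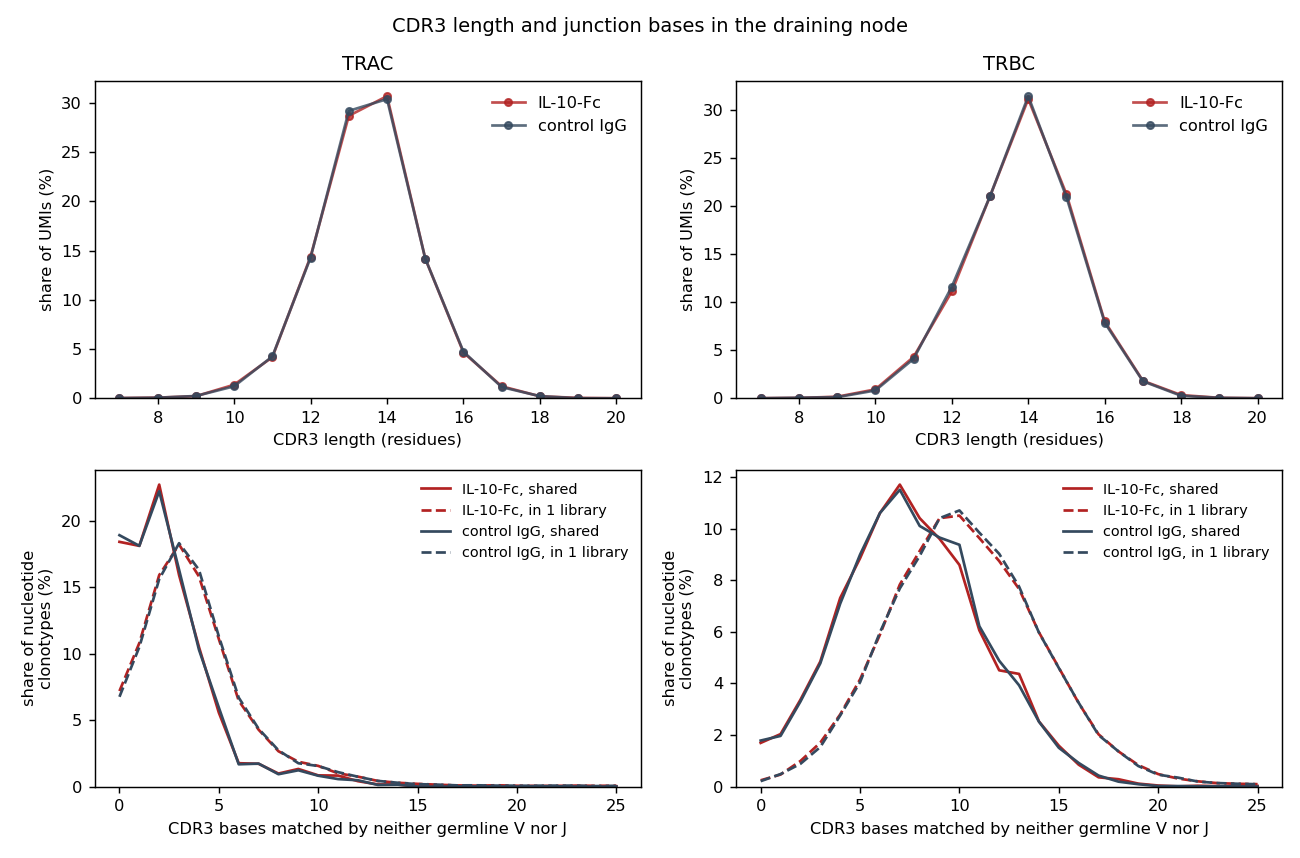
Top, share of UMIs (%) at each CDR3 length in residues for TRAC and TRBC; bottom, share of nucleotide clonotypes (%) by the number of CDR3 bases matched by neither germline V nor J, for clonotypes in both node libraries (solid) and in 1 (dashed). Lines of IL-10-Fc and control IgG lie on each other in all 4 panels, and the solid lines lie to the left of the dashed ones, with means of 7.68 and 7.69 against 10.4 bases for TRBC.

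Beta chain V and J usage was close to equal in the 2 nodes. Of 20 Trbv regions with a mean share of at least 0.5% of TRBC UMIs, none was higher by 25% or more in either node (0 of 20, 0%), and their ratios of IL-10-Fc to control IgG ran from 0.888 to 1.11. Exact intervals of 12 of the 20 ratios excluded 1, so differences of this size exceeded counting error without a spread between mice to set them against. Trbv16 was the most used, at 11.1% with IL-10-Fc and 10.9% with control IgG, followed by Trbv3 at 9.05% and 9.39% and Trbv19 at 9.0% and 9.10%. The largest ratio was that of Trbv29, at 7.48% and 6.76% (1.11, 1.08 to 1.14), and the smallest that of Trbv20, at 1.87% and 2.11% (0.888, 0.844 to 0.934). In the spleens of the same treatments Trbv29 was at 14.2% and 13.2% (1.08, 1.06 to 1.10) and Trbv20 at 1.31% and 1.55% (0.841, 0.793 to 0.892).

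Further Trbv regions differed by less. Trbv23, Trbv14 and Trbv31 had ratios of 1.08, 1.07 and 1.07, and Trbv15, Trbv13-3 and Trbv5 had 0.920, 0.936 and 0.945. Trbv31, which lies beyond the constant regions and joins by inversion, was at 2.90% and 2.71% in the node but at 1.38% and 1.58% in the spleens. The Trbv13 family, known from antibodies as Vbeta8, was at 16.8% and 16.9%, and the Trbv12 family, Vbeta5, at 8.30% and 8.16%. Counting each clonotype once, the Trbv ratios ran from 0.923 to 1.14, so the near-equal usage did not rest on abundant clonotypes. To turn the Trbv usage of 1 node into that of the other, 2.07% of UMIs would have to move to another region, against 3.42% between the spleens and 2.92% between the BF10 and anti-CSF1R nodes.

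Of the Trbj regions 12 passed the same minimum and none was higher by 25% in either node (0%), with ratios from 0.937 for Trbj2-2 to 1.03 for Trbj2-3. Trbj2-7 was the most used, at 21.8% and 21.6%, then Trbj2-1 at 12.5% and 12.3%. The Trbj1 cluster was at 30.9% (30.7% to 31.1%) and 31.2% (31.0% to 31.5%) and the Trbj2 cluster at 69.1% and 68.8%. In the spleens the Trbj1 cluster was at 28.9% and 31.2%. The share to be moved was 0.978% in these nodes, 2.47% in the spleens and 1.09% in the other nodes.

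**Figure D4:**
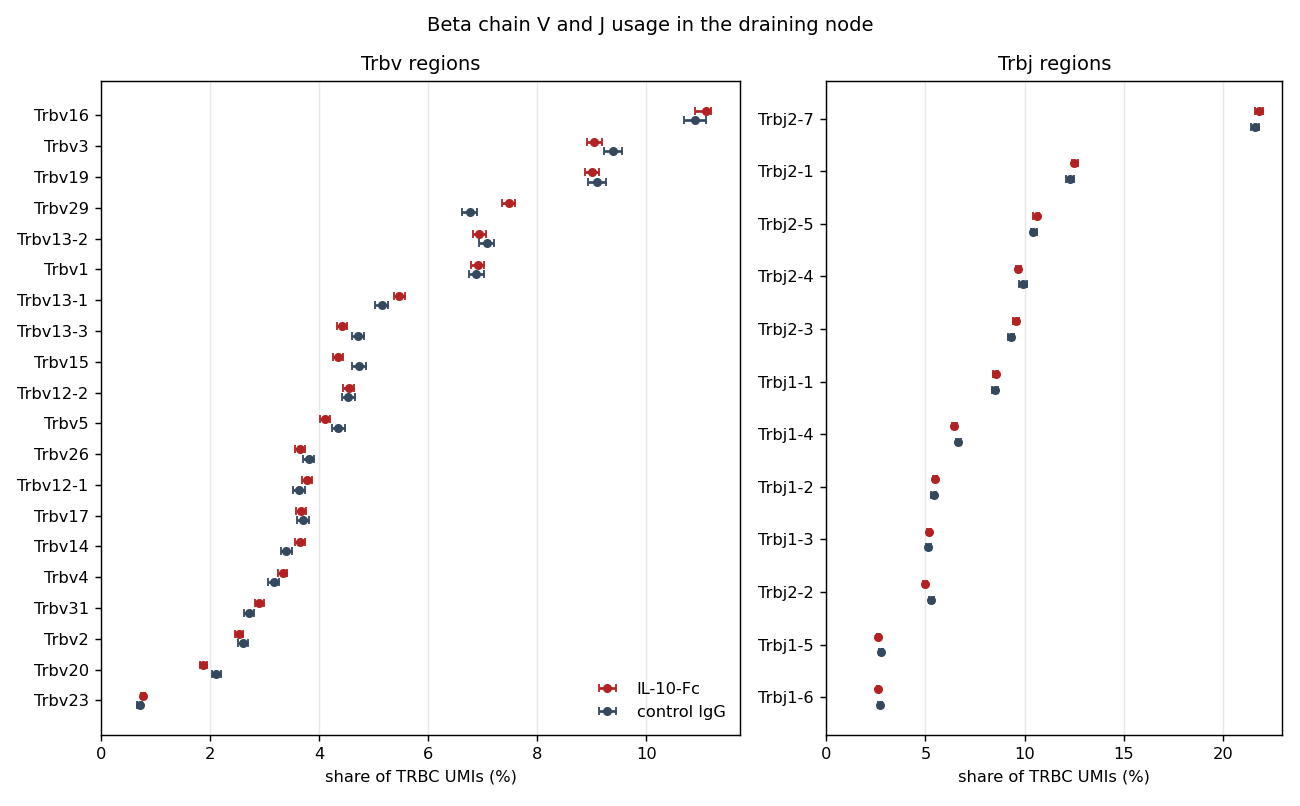
Share of TRBC UMIs (%) of the 20 Trbv and 12 Trbj regions past the minimum in the IL-10-Fc (red) and control IgG (dark blue) nodes; bars are 95% exact binomial intervals and cover counting error only. The points of each pair lie close together, with Trbv29 (7.48% and 6.76%) and Trbv20 (1.87% and 2.11%) the farthest apart in ratio.

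Alpha chain V usage differed somewhat more. Of 60 Trav calls past the minimum, which held 88.2% and 87.6% of TRAC UMIs, 3 were higher by 25% or more in 1 node (5.0%), each of them in the control node. Trav11 or Trav11d was at 0.459% with IL-10-Fc and 0.688% with control IgG (0.667, 0.598 to 0.744). Most of that call was the iNKT chain. The ratio was 0.820 with each clonotype counted once, and 0.640 without the 10 most abundant TRAC clonotypes of each library. Trav10d or Trav10n was at 0.431% and 0.607% (0.710, 0.633 to 0.796). Reads of Trav10, Trav10d and Trav10n cannot be split safely, since these are near-identical copies of 1 gene, and over the whole Trav10 family the shares were 4.84% and 5.26% (0.920, 0.888 to 0.954). Trav21-dv12, a V gene near the Traj segments that both alpha and delta chains can use, was at 0.903% and 1.13% (0.798, 0.736 to 0.865), but at 0.699% and 0.582% in the spleens (1.20, 1.08 to 1.33).

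No Trav call was higher by 25% with IL-10-Fc. The largest ratios were 1.21 for Trav14d-3-dv8 or Trav14n-3 (3.05% and 2.53%), 1.19 for Trav12d-2 (2.42% and 2.03%) and for Trav4d-3 (0.832% and 0.702%), and 1.17 for Trav14d-2 (0.656% and 0.560%). The first of these was below 1 in the spleens, at 2.92% and 3.21% (0.910, 0.868 to 0.953), and the last was 1.0 with each clonotype counted once. Trav14d-1 had the next lowest ratio, 0.838. The most used calls were Trav7d-2, at 6.88% and 6.95%, Trav14-2 or Trav14n-2, at 4.40% and 4.74%, and Trav10, at 3.33% and 3.41%. The share of UMIs to be moved was 4.65% in these nodes, 4.41% in the spleens and 5.35% in the other nodes.

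None of 40 Traj regions was higher by 25% in either node (0%), and the ratios ran from 0.852 for Traj53 to 1.13 for Traj24. Traj31 and Traj22 were the most used, at 6.40% and 6.38% and at 6.39% and 6.23%. Next to the extremes were Traj35 at 1.12 and Traj49 at 1.11, and Traj6 at 0.862 and Traj58 at 0.873. Taken in 3 blocks along the locus, Traj1 to Traj20, which lie nearest to the constant region and are mostly reached by later rearrangements, held 23.8% and 24.1%. Traj21 to Traj40 held 56.6% and 56.1%, and Traj41 and higher 19.5% and 19.8%.

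**Figure D5:**
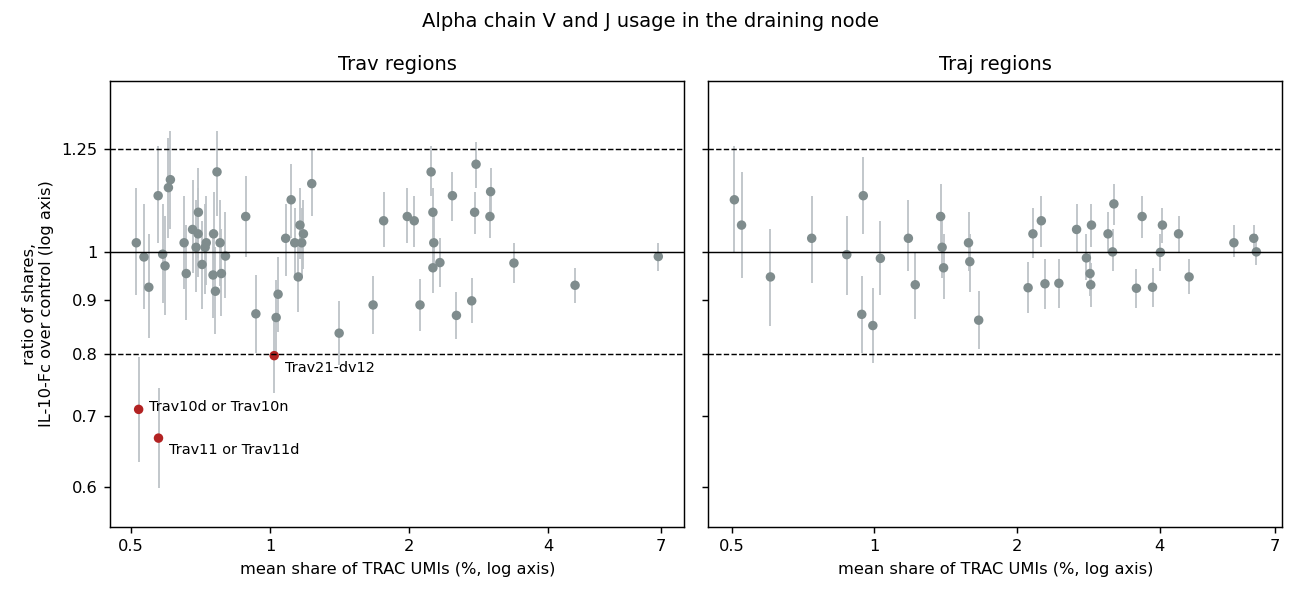
Ratio of shares, IL-10-Fc over control IgG (log axis), against the mean share of TRAC UMIs (%, log axis) for 60 Trav calls (left) and 40 Traj regions (right) in the node; bars are exact 95% intervals of counting error and dashed lines mark shares that are 25% higher in either node. The 3 Trav calls past the lower line are named, at 0.667, 0.710 and 0.798, and no Traj region lies past either line.

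Chains of other cell types were present in both nodes. CD8 itself is not measured in these libraries, and the titles of the node samples lack the CD8 prefix of the other titles although the cell type label states CD8 T cells. TRAC and TRBC, the chains of conventional T cells, made up 94.5% of UMIs with IL-10-Fc and 94.7% with control IgG. TRGC and TRDC, which mark gamma delta T cells, together held 5.49% (5.42% to 5.57%) and 5.27% (5.18% to 5.36%), a ratio of 1.04 (1.02 to 1.07). In the BF10 and anti-CSF1R nodes they held 6.34% and 4.96%. In the spleens the same chains were at 0.677% with IL-10-Fc and 1.96% with control IgG, a ratio of 0.346 (0.328 to 0.365). TRGC alone had a node ratio of 0.984 and TRDC of 1.13.

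A single gamma and a single delta clonotype stood out, and both are shown without marked bases since no germline match was made for these chains.
Trgv6 with Trgj1, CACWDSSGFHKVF: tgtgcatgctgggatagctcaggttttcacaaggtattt
Trdv4 with Trdj2, 17 residues: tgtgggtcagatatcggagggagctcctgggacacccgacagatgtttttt
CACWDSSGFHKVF of Trgv6 with Trgj1 had 3914 UMIs with IL-10-Fc, 36.0% of TRGC (35.1% to 37.0%), and 2558 with control IgG, 33.1% (32.0% to 34.1%). The 17-residue CDR3 of Trdv4 with Trdj2 had 2386, 30.3% of TRDC (29.3% to 31.4%), and 1361, 28.0% (26.8% to 29.3%). These are the invariant chains known from gamma delta T cells of fetal origin, which also settle in lymph nodes. They were the leading clonotypes of their chains in both libraries, at ratios of 1.09 (1.04 to 1.15) and 1.08 (1.01 to 1.16).

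The iNKT cell chain was lower with IL-10-Fc. All CDR3s of Trav11 or Trav11d with Traj18 together held 421 UMIs, 0.307% of TRAC (0.279% to 0.338%), with IL-10-Fc and 504, 0.496% (0.454% to 0.541%), with control IgG, a ratio of 0.619 (0.543 to 0.706). The BF10 and anti-CSF1R nodes had 0.270% and 0.351%, so the control node was the highest of the 4. In the spleens the shares were 0.0454% and 0.464% (0.0977). Of these UMIs, 98.1% and 98.2% had the canonical 15 residues, and the leading CDR3 was made up of 9 nucleotide forms in each library. The call of Trav11 or Trav11d with any Traj region had 629 and 699 UMIs.

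The chain of mucosal-associated invariant T (MAIT) cells, Trav1 with Traj33, had 59 UMIs with IL-10-Fc and 83 with control IgG, 0.0430% (0.0328% to 0.0555%) and 0.0817% (0.0651% to 0.101%), a ratio of 0.527 (0.371 to 0.745). Its leading CDR3 was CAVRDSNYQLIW in both, with 29 and 49 UMIs. The BF10 and anti-CSF1R nodes had 9 and 13 UMIs of this pairing. Both invariant alpha chains thus made up a smaller share of TRAC with IL-10-Fc, and neither difference can be told apart from a difference between the pooled mice or in the purity of the bead isolation. Their part, and that of the gamma delta chains, in the V usage and in the lists of clonotypes was not tested.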

How the data were processed

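TCR libraries of CD8+ T cells were made with the QIAseq Immune Repertoire kit and sequenced on a NextSeq instrument. The authors grouped reads by UMI in the kit supplier's portal, which called V region, J region and CDR3 (genome build mm10 per the labels). Its germline reference and version are not given in the sources used here. The deposited values were counts of UMIs with at least 3 to at least 7 reads for each clonotype, without normalization. The deposited fraction was each clonotype's share of its library and chain, and was recomputed from the counts. Of all the listed clonotypes of both libraries 0 were out of frame and 0 held a stop codon.

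UMIs were summed by chain, V call, J call and CDR3 amino acids. Shares carry exact (Clopper-Pearson) and ratios exact conditional 95% intervals of counting error. With 1 pooled library a side no test across libraries was made, and differences were called by size, at 25% above the lower share for V and J regions of at least 0.5% mean share and 4-fold for clonotypes of at least 20 UMIs, with 0 set at a floor of 3 UMIs. Numbers at equal UMIs are analytic expectations. Germline V, D and J sequences were read from the GENCODE vM21 annotation of GRCm38 and found for 139 of 142 V genes and 53 of 54 J calls, and 61 of 62 named genes had a position there. A V call that names several genes was kept as called.

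Named were, per chain, the 4 V and 3 J regions with the largest ratio each way, the 3 V and 2 J regions and the 5 clonotypes of each library with the largest share, the 5 shared clonotypes with the highest lower share, the 3 clonotypes with the largest ratio each way, the largest TRGC and TRDC clonotypes, and lists of segment clusters, families and chains of other cell types. Members and lists were chosen with earlier results of these data known. Labels carry no replicate numbers, so no pairing was made. The counting steps were tested on simulated data. Intervals came from scipy 1.17.1, tables from pandas 2.3.3 with numpy 2.4.6 under Python 3.11.15, and figures from matplotlib 3.10.9.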

Additional observations from a re-analysis of the deposited data

Results flagged for a closer look

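The difference of Trav21-dv12 between IL-10-Fc and control IgG lay on opposite sides in node and spleen. In the node the ratio of shares was 0.798 (exact interval 0.736 to 0.865) and in the spleen 1.20 (1.08 to 1.33), with 1 library each, and the difference between the tissues was not tested.

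TRGC and TRDC together also lay on opposite sides. They had a ratio of 1.04 (1.02 to 1.07) in the node, at 5.49% and 5.27% of UMIs, and of 0.346 (0.328 to 0.365) in the spleen, at 0.677% and 1.96%. This difference between the tissues was not tested either.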

How the results depend on the processing

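No paired analysis was possible because the labels carry no replicate numbers and each treatment had 1 pooled node library, and leaving out a replicate was not possible for the same reason. Of 76 alternative values of the comparisons, 44 moved by less than counting error (counts within 1.5 times) and 32 moved further. No ratio among the 32 crossed equality, but many of the 76 were counts or percentages, which have no equality to cross. For TRAC, the unequal clonotypes turned from 147 higher and 119 lower to 12 and 15 when more reads were required of a UMI. Of 111 values for single V and J regions, 95 moved by less than counting error and 16 moved further. With each clonotype counted once, Trbv16 (1.01) came to 0.979 and Traj22 (1.03) to 0.975.

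The ratio of clonotypes at equal UMIs (1.15 for both chains) was 1.06 for TRAC and 1.05 for TRBC at 7 or more reads, 1.24 and 1.31 for clonotypes of at least 2 UMIs (a minimum that the larger IL-10-Fc library passes more readily), and 1.34 and 1.46 as listed. The ratio of the share of the largest TRAC clonotypes was 0.864 with 100 in place of 10, and for TRBC 0.838 by CDR3 nucleotides. The shared part of the control list (21.1% of TRAC, 12.9% of TRBC) was 12.6% and 4.14% by nucleotides, 39.5% and 23.3% by CDR3 amino acids alone, 16.1% and 8.62% at 7 reads, 19.4% and 10.1% at 2 UMIs, and 19.1% and 10.8% with the larger library brought to the smaller total. Without the minimum share, but with 20 UMIs in both libraries together, 36 of 142 Trav and 3 of 25 Trbv calls were past the 25%. With IL-10-Fc, 9 of these Trav calls were higher and 27 lower, and 2 of the Trbv calls higher and 1 lower. The TRBC length difference was 0.0357 residues with each clonotype counted once. At 7 reads, the clonotypes 4-fold higher with IL-10-Fc numbered 12 of 79 for TRAC and 21 of 48 for TRBC, and those lower 15 and 19. At 2-fold, 190 of 656 TRAC clonotypes were higher (29.0%) and 182 lower (27.7%). The iNKT and MAIT chain ratios were 0.486 and 0.748 with each clonotype counted once. Chosen after seeing the data were alternatives for CDR3s of at most 20 residues, V families and the junction. With clonotypes of at least 2 UMIs, shared junctions had 1.17 (IL-10-Fc) and 1.33 (control) fewer unmatched bases for TRAC, values of -1.17 and -1.33, and -2.54 and -2.56 for TRBC. The causes were not tested.

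With 1 library a side there was no spread between mice. Depth sets how low a share can be seen. The floor of 3 UMIs set for counts of 0 was 0.00162% and 0.00241% of TRBC with IL-10-Fc and control IgG. Of TRBC UMIs, 35.3% and 40.9% had 7 or more reads.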

Other observations

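Very long beta CDR3s were mostly of 1 V call. Of the 31 TRBC UMIs with more than 100 residues in the IL-10-Fc node, 27 were called Trbv2 or Trbv18, and of the 10 in the control node 8 were. These were nearly all UMIs of that call, which had 28 and 8 in all. Each of the 12 libraries held such CDR3s, with 7 to 63 UMIs.

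Below the minimum share, Trav7n-4 was at 0.297% of TRAC UMIs with IL-10-Fc and 0.493% with control IgG, a ratio of 0.602 (0.527 to 0.688), and at 0.828 with each clonotype counted once. It was chosen here after its values were seen. In the spleens its shares were 0.247% and 0.249%.

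The alpha clonotype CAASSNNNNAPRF with Traj43 was called to Trav10n in 51 UMIs with IL-10-Fc and 154 with control IgG (0.245, 0.175 to 0.339), beside 326 and 275 called to Trav10. The Trav10n clonotype was listed in the 4 node libraries alone, with 3 and 1 UMIs in the anti-CSF1R and BF10 nodes. The commonest forms under both calls differ in their CDR3 bases. For Trav10n that form had 51 of 51 and 153 of 154 UMIs, and for Trav10 198 of 326 and 166 of 275. Since Trav10 and Trav10n are near-identical copies, the V gene behind each form is uncertain.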
